A study of Mus musculus with 8 samples.

Results

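Prostaglandin synthesis and receptor genes were followed in bulk RNA sequencing of epidermal Langerhans cells, antigen-presenting cells that carry antigen from skin to lymph nodes. The set was given as a fixed list of 10 genes: Ptgs1, Ptgs2, Ptges, Ptges2, Ptges3, Hpgds, Ptger1, Ptger2, Ptger3 and Ptger4. The rule lists them by name and uses no measured value, though it was written with earlier results of these data known, and all 10 were among the 25247 genes counted. The cells came from the ears of C57BL/6 mice that were wild type (WT) or lacked Ezh2 (knockout, KO), with 4 libraries per genotype. Ezh2 is the histone H3K27 methyltransferase of Polycomb repressive complex 2, a repressor of transcription, and by its title the series concerns its role in how Langerhans cells migrate and in contact allergy of the skin. The sort kept DAPI- cells that were positive for CD45, MHC class II, CD24 and EpCAM and lacked Ly6G and CD103. The labels give no age, no treatment, no Ezh2 allele, and no promoter or cell type for the deletion. They also do not say whether each library came from its own animal or from a pool, so a p-value here reflects library-to-library spread alone, and that spread may be technical.

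The genotype of 4 libraries is disputed by the labels. Each library has a code, and the code in a sample's title was set against the code in its description. Both put RMN030 and RMN031 in WT, and RMN038 and RMN039 in KO. Titles put RMN032 and RMN033 in KO and RMN036 and RMN037 in WT, whereas descriptions put them the other way round. Results are therefore given for the 4 undisputed libraries (2 against 2), for all 8 by title code and for all 8 by description code (4 against 4 each). The codes also form an earlier run (RMN030 to RMN033) and a later run (RMN036 to RMN039), and the labels do not say what separates the runs. By description code, and in the undisputed libraries, WT is the earlier and KO the later run, so genotype and run cannot be told apart there. By title code each run holds 2 WT and 2 KO libraries.

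Prostaglandins are short-lived lipid signals made from arachidonic acid. Cyclooxygenases convert it to prostaglandin H2, and terminal synthases turn that into prostaglandin E2, prostaglandin D2 and other products. Prostaglandin E2 acts through the receptors EP1 to EP4, encoded by Ptger1 to Ptger4: EP2 and EP4 raise cyclic AMP, EP3 mainly lowers it, and EP1 raises calcium. In skin, EP4 signalling is known for promoting Langerhans cell migration to lymph nodes.

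The promoters of the 2 cyclooxygenase genes and of the receptors Ptger3 and Ptger4 are shown because the contrasts below turn on these pairs. Each sequence is the 250 bases before the RefSeq start of the gene on GRCm38.p6, written 5′ to 3′ on the gene's strand, with every GC box (GGGCGG on either strand) in capitals. They lie at chr3:157566626-157566875 (plus strand) for Ptger3, chr15:5244188-5244437 (minus strand) for Ptger4, chr2:36230176-36230425 (plus strand) for Ptgs1 and chr1:150099781-150100030 (plus strand) for Ptgs2.
Ptger3: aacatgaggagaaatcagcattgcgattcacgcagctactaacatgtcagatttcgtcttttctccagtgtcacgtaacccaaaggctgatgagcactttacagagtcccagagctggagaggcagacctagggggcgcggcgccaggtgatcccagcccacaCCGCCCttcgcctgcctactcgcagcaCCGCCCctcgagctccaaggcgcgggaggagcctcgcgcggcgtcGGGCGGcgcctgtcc
Ptger4: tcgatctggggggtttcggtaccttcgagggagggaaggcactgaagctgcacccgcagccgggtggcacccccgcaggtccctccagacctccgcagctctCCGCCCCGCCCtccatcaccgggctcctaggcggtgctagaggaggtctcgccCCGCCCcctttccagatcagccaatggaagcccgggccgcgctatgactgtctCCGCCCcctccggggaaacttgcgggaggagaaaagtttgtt
Ptgs1: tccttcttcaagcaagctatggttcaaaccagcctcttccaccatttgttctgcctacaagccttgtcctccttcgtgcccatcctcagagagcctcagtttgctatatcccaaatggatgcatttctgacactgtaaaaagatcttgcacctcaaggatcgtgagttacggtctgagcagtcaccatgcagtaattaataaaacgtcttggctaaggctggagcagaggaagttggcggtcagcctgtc
Ptgs2: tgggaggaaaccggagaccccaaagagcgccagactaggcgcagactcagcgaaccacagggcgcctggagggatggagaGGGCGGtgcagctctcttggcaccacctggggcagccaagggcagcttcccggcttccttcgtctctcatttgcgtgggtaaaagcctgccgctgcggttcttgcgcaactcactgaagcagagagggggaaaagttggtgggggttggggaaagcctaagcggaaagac
The Ptger3 window held 21 CpG dinucleotides and 3 GC boxes, and the Ptger4 window 19 CpG dinucleotides and 4 GC boxes, the first 2 of which overlap. The Ptgs2 window held 13 CpG dinucleotides and 1 GC box, and the Ptgs1 window 5 CpG dinucleotides and 0 GC boxes. Across 32851 windows of this length the median was 6 CpG dinucleotides, and 32.7% held a GC box on either strand. The palindromic cyclic AMP response element TGACGTCA was in 1.5% of these windows and in none of the 9 that matched a member. Ptger1 had no entry.

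The libraries held 11051402 to 18966195 counts. Langerhans cell markers were high in all 8, with Cd207 (langerin) at 9706 to 11960 CPM (counts scaled to a library total of 1000000), and the 10 genes of that list summed to 66710 to 84070 CPM. Ezh2 itself was at 15.7 and 22.4 CPM in the undisputed WT libraries and at 12.7 and 10.5 CPM in the undisputed KO libraries. The disputed RMN032, RMN033, RMN036 and RMN037 had 15.2, 14.9, 19.0 and 17.6 CPM. Its log2 fold change, KO minus WT, was -0.66 in the undisputed libraries, -0.49 by title code and -0.15 by description code, with adjusted p in edgeR of 0.455, 0.998 and 0.869. Unadjusted p in edgeR was 0.054, 0.021 and 0.525 in the same order. By title code the Ezh2 groups did not overlap, at 15.7 to 22.4 CPM in WT and 10.5 to 15.2 CPM in KO. Of all tested genes 2.94% had no overlap by title code. By description code the Ezh2 groups overlapped, at 14.9 to 22.4 CPM in WT and 10.5 to 19.0 CPM in KO. The part of Ezh2 that was deleted is not given, so a count over the whole gene is a weak check of the labels.

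RNA of other cell types varied between libraries. Markers of T cells (13 genes) summed to 273 and 266 CPM in RMN030 and RMN031 and to at most 9.68 CPM in the other 6. The sums of several lists differed between the runs without overlap. Earlier and later libraries held 38.3 to 47.0 against 61.6 to 86.4 CPM for mast cell markers (9 genes), 37.0 to 62.9 against 120 to 199 CPM for fibroblast markers (7 genes), and 399 to 502 against 536 to 593 CPM for macrophage markers (7 genes). Adgre1 made up most of the macrophage sum, with ranges that overlapped (309 to 372 against 315 to 414 CPM). Cd14, Mrc1 and Fcgr1 also overlapped, whereas Lyz2, F13a1 and Cd163 were higher in every later library than in every earlier one. Haemoglobin and erythroid genes (5 genes) ran from 122 to 226 CPM in earlier and from 580 to 1355 CPM in later libraries. Mitochondrial transcripts made up 1.02% to 1.87% of counts in earlier and 3.76% to 4.03% in later libraries. Immediate early genes (11 genes) summed to 15780 to 17290 CPM in earlier and 11930 to 12580 CPM in later libraries. Fos, Fosb, Jun, Junb, Nr4a1, Btg2 and Zfp36 were lower in every later library than in every earlier one. Egr1, Atf3, Ier2 and Dusp1 overlapped between runs. Keratinocyte markers (9 genes) summed to 12120 to 15520 and 12420 to 14370 CPM, with ranges that overlapped, although the sort was for CD45+ cells. Krt14 made up most of that sum and overlapped between runs, as did Krt5, Krt10 and Dsg3. Krt15 and Trp63 were lower in every later library than in every earlier one, whereas Krt1, Krt79 and Sbsn were higher. No gene of these lists was at 0 in every library.

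Compared per kb of exon, the level of the members spanned from near the top of the transcriptome to the counting floor. Ptgs1, the constitutive cyclooxygenase COX-1, had 294 ± 28.8 CPM per kb (SD, n = 8) and ranked 156 of the 25247 genes. Hpgds, the haematopoietic synthase of prostaglandin D2, followed at 69.7 ± 10.1 CPM per kb. Next came Ptges3 (57.2 ± 10.6), Ptges (38.1 ± 4.56) and Ptgs2 (33.01 ± 7.38 CPM per kb). Ptges encodes the inducible microsomal prostaglandin E synthase, Ptges3 the co-chaperone p23, also described as a cytosolic prostaglandin E synthase, and Ptgs2 the inducible cyclooxygenase COX-2. The receptors were lower: Ptger4 had 8.10 ± 1.07, Ptger3 4.65 ± 1.84 and Ptger1 2.68 ± 0.756 CPM per kb. Ptges2, a second membrane-associated prostaglandin E synthase, had 1.49 ± 0.275 CPM per kb, and Ptger2 had 0.0114 CPM per kb. The ranges over 8 libraries were apart only between Ptgs1 and Hpgds, Ptgs2 and Ptger4, and Ptges2 and Ptger2 among neighbours in this order. Ptges exceeded Ptgs2 in 6 of 8 libraries, Ptger4 exceeded Ptger3 in 7 of 8 and Ptger3 exceeded Ptger1 in 6 of 8, so these neighbours did not hold one order throughout.

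**Figure D1:**
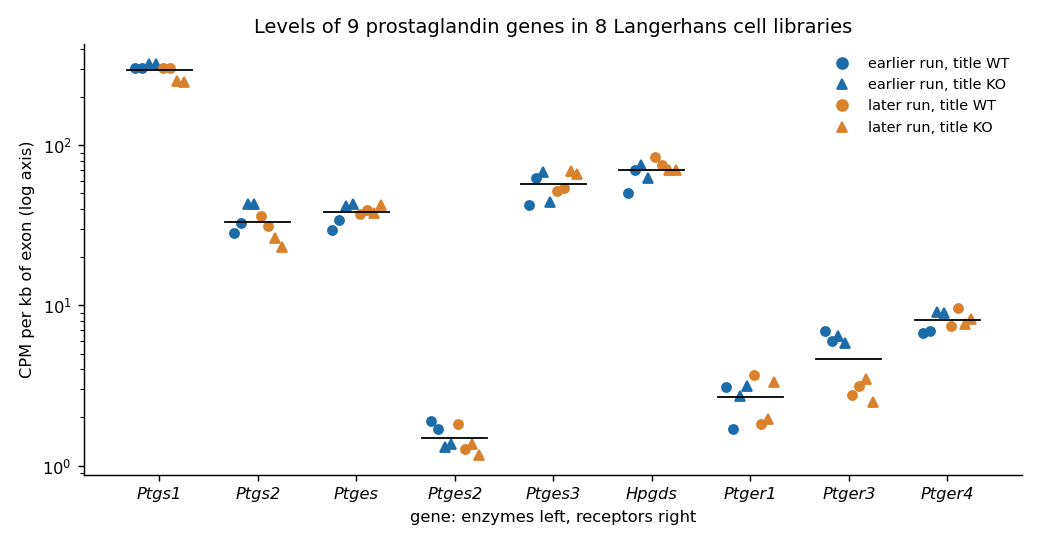
Level of each member in each library, in CPM per kb of exon on a log axis, by code run (colour) and title-code genotype (shape); lines are means over 8 libraries and Ptger2, at 0 in 5 libraries, is not drawn. Ptgs1 lies highest in all 8 libraries, and the earlier and later libraries of Ptger3 separate.

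Ptger3, on chromosome 3 from 157566892 to 157645888 (plus strand, GRCm38), was lower in every later library than in every earlier one. The earlier libraries RMN030, RMN031, RMN032 and RMN033 had 39.6, 34.15, 36.9 and 33.01 CPM. The later libraries RMN036, RMN037, RMN038 and RMN039 had 15.7, 17.9, 19.8 and 14.3 CPM. The earlier and later values did not overlap, whichever genotype the labels gave. By description code this is 35.9 ± 2.93 CPM in WT and 16.9 ± 2.43 CPM in KO (SD, n = 4 each; two-sided exact permutation p = 0.0286, the smallest that 4 against 4 allows). Ptger3 was the 1 member of 10 whose description-code groups did not overlap, and 8.82% of all tested genes also had no overlap.

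The edgeR quasi-likelihood test gave Ptger3 a log2 fold change of -1.04 by description code (SE 0.157, adjusted p = 0.0039), a 2.06-fold lower level in KO. It fell past the adjusted threshold of 0.05 as 1 of 9 tested members, against 2.02% of all genes called and 0.595% called lower. DESeq2 called 4.51% of genes in the same comparison. By title code the log2 fold change was -0.06 (SE 0.333, edgeR adjusted p = 0.998), with 2 high and 2 low libraries in each genotype. In the undisputed libraries it was -1.06 (SE 0.263, edgeR adjusted p = 0.117). There 0 of 9 tested members passed in edgeR, against 0.794% of all genes called and 0.346% called lower. In edgeR 2 members had an unadjusted p under 0.05, and with limma voom 0 members passed the adjusted threshold. The missed call of Ptger3 was sensitive to the tool: the adjusted p was 0.0211 with DESeq2 (2.07% of genes called) and 0.00764 in edgeR with no filter on low counts. It also depended on single libraries, at 0.024 without RMN031, 0.0197 without RMN038, 0.211 without RMN030 and 0.202 without RMN039 in edgeR. Summed markers of mast cells, fibroblasts, macrophages and blood were higher in the same later libraries, and immediate early genes summed to less. Single genes such as Adgre1, Cd14 and Egr1 overlapped between runs. The part of these lists in the Ptger3 difference was not tested. In bulk samples fewer cells of a type and less RNA per cell cannot be told apart.

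With title genotype held as a covariate, the later run had a Ptger3 log2 difference of -1.04 from the earlier (SE 0.162, edgeR adjusted p = 0.00518; 2.34% of genes called, 0.766% lower). This fit, and those inside one title genotype, were added after the data were seen. Within title WT, RMN036 and RMN037 against RMN030 and RMN031, the difference was -1.13 (edgeR adjusted p = 0.0871; 0.569% of genes called). Within title KO, RMN038 and RMN039 against RMN032 and RMN033, it was -0.95 (edgeR adjusted p = 0.112). Neither comparison of 2 against 2 passed the threshold. Title genotype within a run gave Ptger3 differences of -0.12 in the earlier and 0.05 in the later run, and the genotype-by-run term was 0.17 (SE 0.323, edgeR adjusted p = 0.943). Without RMN030 and RMN031, the libraries rich in T cell transcripts, the description-code log2 fold change was -0.98 (edgeR adjusted p = 0.0331).

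**Figure D2:**
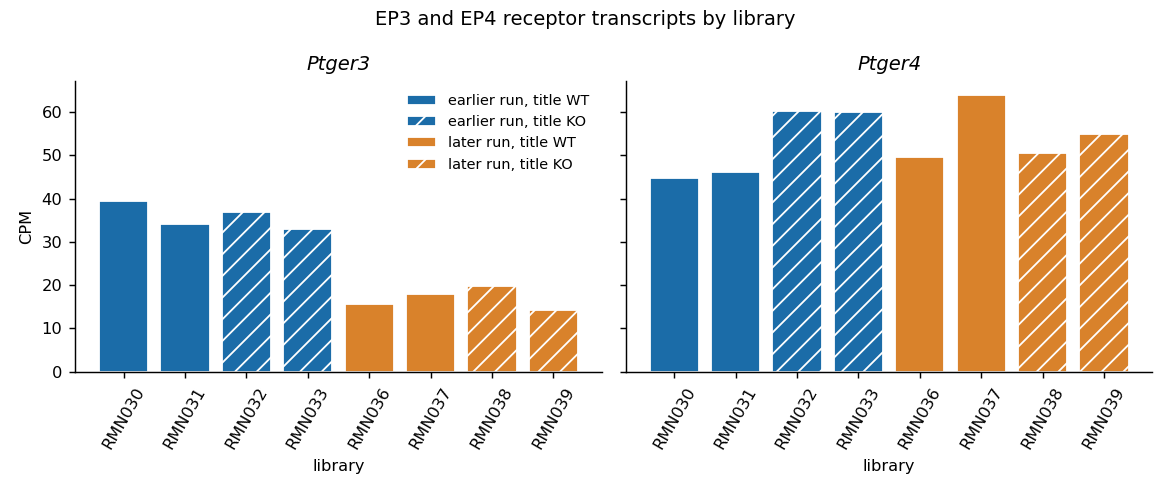
Ptger3 (left) and Ptger4 (right) in each library, in CPM, coloured by code run and hatched where the title gives KO. Ptger3 stands at 33.01 to 39.6 CPM in the 4 earlier and 14.3 to 19.8 CPM in the 4 later libraries, whereas Ptger4 overlaps between runs.

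Ptger4, on chromosome 15 from 5206661 to 5244187 (minus strand), showed no such split. It was at 44.75, 46.2, 60.4 and 60.05 CPM in RMN030 to RMN033, in code order, and at 49.7, 64.0, 50.6 and 55.0 CPM in RMN036, RMN037, RMN038 and RMN039. Both readings gave overlapping groups. The edgeR log2 fold changes were 0.26 (SE 0.196, undisputed), 0.14 (SE 0.136, title code) and 0.10 (SE 0.136, description code), with adjusted p of 0.696, 0.998 and 0.851. Of its exon bases, 15.3% are shared with the pseudogene Gm15937 on the opposite strand, which was at no more than 0.0613 CPM, and 1.23% with Ttc33, which was at 2.56 to 10.1 CPM, and the strand setting of the counting is not given in the sources used here.

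Because EP3 and EP4 act on cyclic AMP in opposite directions, their ratio per kb of exon was taken in each library. Ptger4 stood at 0.968, 1.16, 1.40 and 1.56 times Ptger3 in RMN030 to RMN033. In RMN036 to RMN039 the ratio was 2.70, 3.06, 2.18 and 3.29. Every later library was above every earlier one. By description code the difference in the log2 ratio was 1.15, from 0.32 ± 0.30 in WT to 1.47 ± 0.26 in KO (SD, n = 4 each; two-sided exact permutation p = 0.0286). By title code it was 0.19 (two-sided exact permutation p = 0.686). The ratio contains Ptger3, so it is not a second, independent result.

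As shares of the summed EP receptor level per kb, Ptger3 transcripts made up 32.3% to 41.5% in earlier and 17.8% to 26.7% in later libraries. Ptger4 made up 40.1% to 50.3% in earlier and 53.7% to 65.7% in later ones, and Ptger1 11.6% to 26.4% over all 8. Ptger2 contributed at most 0.315%.

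**Figure D3:**
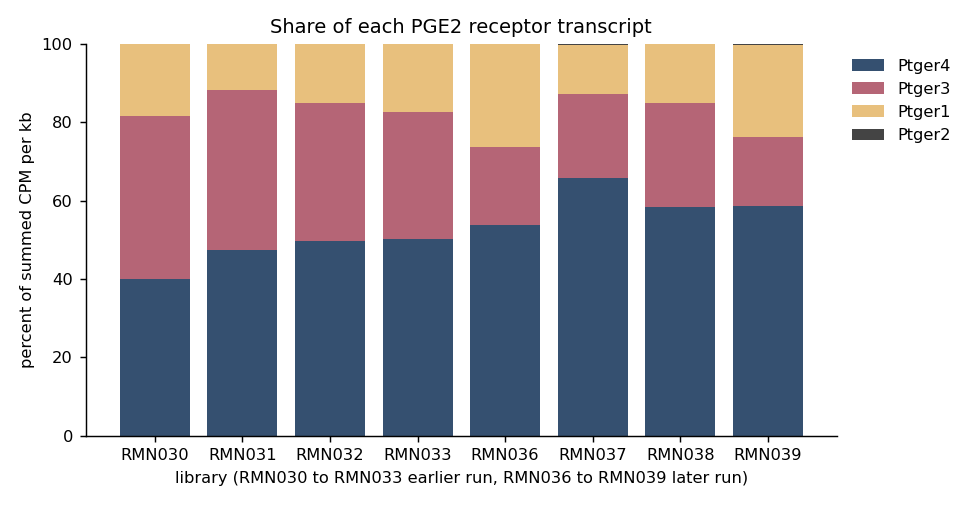
Share of each EP receptor gene in the summed CPM per kb of Ptger1 to Ptger4, one stacked bar per library (percent). Ptger3 takes 32.3% to 41.5% in the 4 earlier and 17.8% to 26.7% in the 4 later libraries.

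Ptger1, on chromosome 8 from 83666678 to 83672753 (plus strand), was at 16.9, 9.27, 15.0 and 17.1 CPM in RMN030 to RMN033 and at 20.03, 9.95, 10.7 and 18.1 CPM in RMN036 to RMN039. High and low libraries occurred in both runs and both genotypes, and its edgeR adjusted p was at least 0.928 in the 3 comparisons. Its value is uncertain, since the strand setting of the counting is not given in the sources used here. Ptger2, on chromosome 14 from 44988195 to 45003820 (plus strand), had 0 counts in 5 libraries, 1 in RMN031, 4 in RMN037 and 2 in RMN039. The filter on low counts left Ptger2 out of the 3 edgeR comparisons. With no filter its edgeR adjusted p was 0.928 in the undisputed libraries, 0.973 by title code and 0.597 by description code. A count of 0 allows a level of up to 0.158 to 0.229 CPM in the 5 libraries concerned, for counting error only.

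Ptgs1, on chromosome 2 from 36230426 to 36252272 (plus strand), had the lowest coefficient of variation of the members, 9.80%. It stood at 1172, 1169, 1243 and 1255 CPM in RMN030 to RMN033, at 1173 and 1185 CPM in RMN036 and RMN037, and at 975 and 962 CPM in RMN038 and RMN039. The last pair, undisputed KO, lay below the other 6. The edgeR log2 fold changes were -0.23 (SE 0.120, undisputed), -0.09 (SE 0.091, title code) and -0.13 (SE 0.083, description code), with adjusted p of 0.529, 0.998 and 0.579.

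Ptgs2, on chromosome 1 from 150100031 to 150108227 (plus strand), went in opposite directions in the 2 runs when libraries were grouped by title code. In the earlier run it was 129 and 151 CPM in WT (RMN030, RMN031) and 198 and 197 CPM in KO (RMN032, RMN033). In the later run it was 166 and 143 CPM in WT (RMN036, RMN037) and 121 and 106 CPM in KO (RMN038, RMN039). Neither pair overlapped its counterpart in the same run. With 2 libraries on each side such a gap is common by chance, and its share over all genes is not given here. The genotype log2 differences were 0.46 in the earlier run (edgeR adjusted p = 0.386) and -0.42 in the later run (edgeR adjusted p = 0.54). The test of the difference between them, the genotype-by-run term, was -0.87 (SE 0.182, unadjusted p = 0.000527, edgeR adjusted p = 0.175). It missed the threshold, and 0 of 9 tested members passed, against 0.0478% of all genes called and 0.0137% called lower. Ptgs1 had a term of -0.31 (unadjusted p = 0.024, edgeR adjusted p = 0.543), and no other member had an unadjusted p under 0.05. Within title KO, Ptgs2 was lower in the later libraries past the threshold (log2 difference -0.72, SE 0.118, edgeR adjusted p = 0.0257; 1.26% of genes called). Within title WT the difference was 0.14 (edgeR adjusted p = 0.83). Over all libraries the log2 fold changes were 0.07 by title code, -0.29 by description code and -0.26 in the undisputed libraries, with edgeR adjusted p of 0.998, 0.465 and 0.61. Immediate early genes, a class that includes the genes quickly induced by cell handling, summed to less in the later run in both title genotypes. Of that list Egr1 was instead higher in the later run within title WT. Egr1, Atf3, Ier2 and Dusp1 overlapped between runs. The part of these genes in the Ptgs2 values was not tested.

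Ptgs1 exceeded Ptgs2 by 7.42 to 10.7 times per kb of exon. The difference in the log2 ratio was -0.12 by title code (two-sided exact permutation p = 0.429) and 0.15 by description code (two-sided exact permutation p = 0.314), with overlapping groups in both.

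**Figure D4:**
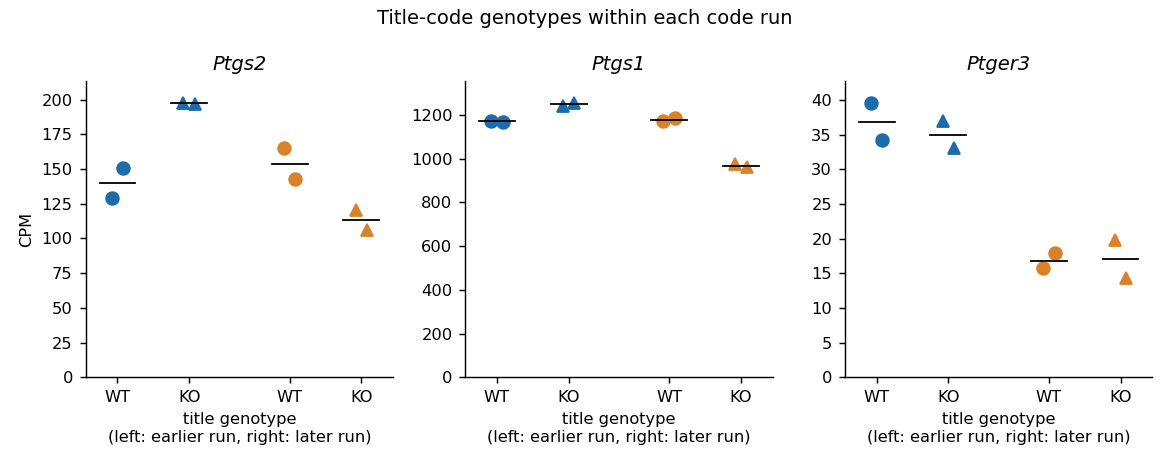
CPM of Ptgs2, Ptgs1 and Ptger3 by title-code genotype within each code run; each point is a library and each line the mean of 2. Ptgs2 is higher in KO in the earlier run (198 and 197 against 129 and 151 CPM) and lower in KO in the later run (121 and 106 against 166 and 143 CPM), while Ptger3 follows the run.

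Among the terminal synthases, Ptges on chromosome 2 (30889471 to 30929863, minus strand) was at 115.5, 134.9, 163.5 and 168.8 CPM in RMN030 to RMN033 and at 145.8, 155.5, 147.6 and 165.5 CPM in RMN036 to RMN039. The 2 undisputed WT libraries were the lowest of the 8. By title code Ptges was 138 ± 17.2 CPM in WT and 161 ± 9.43 CPM in KO (SD, n = 4 each; two-sided exact permutation p = 0.0571), with overlap. The edgeR log2 fold changes were 0.22 (SE 0.105, title code), 0.37 (SE 0.155, undisputed) and 0.12 (SE 0.114, description code), with adjusted p of 0.998, 0.407 and 0.745.

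Hpgds, on chromosome 6 (65117293 to 65144908, minus strand), was at 321, 447, 482 and 402 CPM in the earlier run and at 542, 485, 451 and 452 CPM in the later one, in code order. RMN030 was lowest and RMN036 highest, both WT by title. The edgeR log2 fold changes were 0.27 (SE 0.108, description code), -0.01 (SE 0.137, title code) and 0.28 (SE 0.156, undisputed), with adjusted p of 0.286, 0.998 and 0.558. Mast cells also express Hpgds, and the mast cell list summed to more in the later run (61.6 to 86.4 against 38.3 to 47.0 CPM). Within the list Mcpt4, Cma1, Tpsb2, Tpsab1 and Cpa3 were higher in every later library than in every earlier one. Hdc, Gata2 and Ms4a2 overlapped between runs. Cpa3 was at 5.26 to 13.3 against 0 to 1.62 CPM. Kit, a large part of the sum, was not higher (18.2 to 30.9 against 26.2 to 37.3 CPM). The part of mast cell RNA in the Hpgds values was not tested.

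Ptges3 on chromosome 10 (128058954 to 128077272, plus strand) ranged from 93.7 to 152 CPM, with RMN030 and RMN033 lowest. It is uncertain because a near-copy, Ptges3-ps, drew 22.8 to 40.2 CPM. Ptges2 on chromosome 2 (32395896 to 32405772, plus strand) ranged from 5.88 to 9.62 CPM. Neither passed a threshold in the 3 comparisons, with edgeR adjusted p of at least 0.445 for Ptges3 and 0.723 for Ptges2. In the undisputed libraries without RMN031, Ptger3, Hpgds and Ptges3 all passed (edgeR adjusted p = 0.024, 0.005 and 0.0091), with 4.02% of genes called and 1 WT library left, assumed to vary like KO. The log2 fold changes of Hpgds and Ptges3 there were 0.51 and 0.68. Without RMN030 instead, they were 0.07 and 0.16 (edgeR adjusted p = 1.0 and 0.968).

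By title code 0 of 9 tested members passed in edgeR, and 0 had an unadjusted p under 0.05. Over all genes 0.0% passed, 672 had an unadjusted p under 0.05, DESeq2 called 19 and limma voom 0. The median member log2 fold change was 0.07 by title code, 0.05 by description code and 0.18 in the undisputed libraries, beside medians of -0.003, -0.008 and -0.002 over all genes tested.

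**Figure D5:**
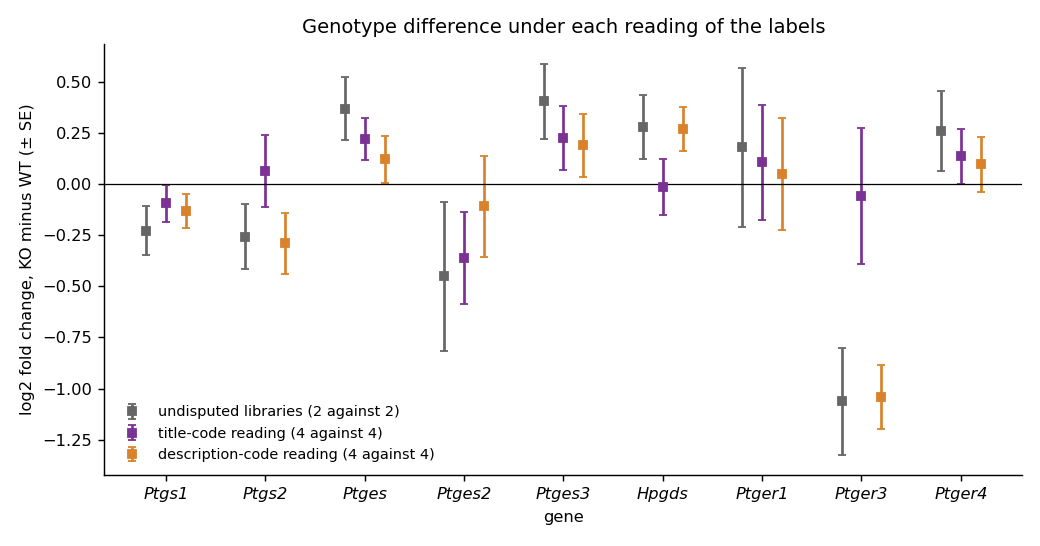
Log2 fold change (KO minus WT) with standard error for the 9 tested members in the undisputed, title-code and description-code comparisons. Ptger3 lies near -1 in the undisputed and description-code comparisons and at -0.06 by title code.

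Around the members, the pathway was described from lists of its other genes. Of 18 phospholipases and lipases that release arachidonic acid, 13 were tested by title and by description code and 12 in the undisputed libraries. In these 3 comparisons 0 passed, and their median log2 fold change by description code was -0.03. Those with the smallest p were Pla2g5 (-0.41), Mgll (0.34) and Pla2g12a (0.55), with edgeR adjusted p of 0.227, 0.304 and 0.423. Of 6 tested genes of prostaglandin breakdown and transport, 0 passed, with a median of 0.01. Slco2a1, the prostaglandin uptake transporter, had a log2 fold change of -0.43 (SE 0.125, edgeR adjusted p = 0.112), and the reductase Ptgr1 and the exporter Abcc4 had 0.60 and 0.21 (edgeR adjusted p = 0.21 and 0.292). Among 6 tested other prostanoid synthases 0 passed by description code, where the thromboxane synthase Tbxas1 had 2.76 (edgeR adjusted p = 0.132) and the carbonyl reductase Cbr2 0.29 (edgeR adjusted p = 0.499). In the undisputed libraries 1 of 6 tested passed, beside 0.794% of all genes called.

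That gene was Akr1c18, an aldo-keto reductase that inactivates progesterone and can also make prostaglandin F. It was at 11.15 and 13.7 CPM in RMN030 and RMN031, 31.6 and 34.5 in RMN032 and RMN033, 27.0 and 16.4 in RMN036 and RMN037, and 52.1 and 43.4 CPM in RMN038 and RMN039. The title-code groups did not overlap, and in each run both KO libraries were above both WT libraries; 2.94% of all tested genes had no overlap by title code. Between undisputed libraries Akr1c18 rose by a log2 fold change of 1.99 (SE 0.247, edgeR adjusted p = 0.00305). By title code it was 1.24 (SE 0.270, edgeR adjusted p = 0.701, DESeq2 adjusted p = 0.00803). By description code it was 0.66 (SE 0.382, edgeR adjusted p = 0.526, DESeq2 adjusted p = 0.658). With run as a covariate the title-code value was 1.27 (edgeR adjusted p = 0.0552), and within the earlier run 1.37 (edgeR adjusted p = 0.0401; 0.375% of genes called). It was 1.17 within the later run (edgeR adjusted p = 0.489) and 0.89 without RMN030 and RMN031 (edgeR adjusted p = 0.697), neither past the threshold. Leaving out RMN030 and RMN031 left only later libraries in title-code WT, beside KO libraries of both runs, so genotype and run were partly mixed there. T cell transcripts were highest in the 2 libraries with least Akr1c18, and their part was not tested.

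Of the 4 other prostanoid receptors counted, 0 were tested by title or description code. The prostaglandin D2 receptor Ptgdr had 1 count in RMN039 and 0 elsewhere, and Ptgdr2, its second receptor, 11 in RMN038, 3 in RMN039 and 0 elsewhere. The prostacyclin receptor Ptgir had 11 counts in RMN030, 4 in RMN032 and 0 elsewhere. Tbxa2r, the thromboxane receptor, had 39 and 48 counts in RMN030 and RMN031 and 1 to 17 in the other 6. Its log2 fold change in the undisputed libraries was -4.38 (edgeR adjusted p = 0.0858); it is named after its values were seen. RMN030 and RMN031 were also the libraries with 273 and 266 CPM of T cell markers, whose part was not tested.

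The lipoxygenase list joins genes of leukotrienes, made from the same arachidonic acid, and their receptors with other lipoxygenases. Of its 13 tested genes 2 passed by description code, 1 higher and 1 lower, and the median was 0.01. Over all genes 2.02% were called and 0.595% called lower. Alox5, the 5-lipoxygenase that starts leukotriene synthesis, fell: it was at 1668, 1625, 1634 and 1670 CPM in the earlier and 1323, 1347, 1174 and 1222 CPM in the later run (log2 fold change -0.34, SE 0.071, edgeR adjusted p = 0.0267). That call was lost without RMN030 and RMN031 together (edgeR adjusted p = 0.067), and when RMN033, RMN036, RMN037, RMN038 or RMN039 was left out (edgeR adjusted p = 0.0506 to 0.0908). Alox12e, an epidermal lipoxygenase, rose from 59.5 to 67.2 CPM in the earlier to 86.4 to 118 CPM in the later run (0.71, SE 0.110, edgeR adjusted p = 0.00456). Alox12b, a lipoxygenase of the skin barrier, had 0.72 (edgeR adjusted p = 0.175). Alox5, Alox12e and Alox12b had no overlap between runs, beside 8.82% of all tested genes with none in that split. By title code 0 of the 13 passed. Single keratinocyte markers also separated the runs, in both directions, and the part of keratinocyte RNA in the Alox12e values was not tested.

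Of 29 tested genes of EP receptor signalling (G proteins, adenylyl cyclases, protein kinase A subunits, phosphodiesterases), 1 rose and 1 fell by description code, with a median of -0.08, beside 2.02% of all genes called. By title code and in the undisputed libraries 0 passed, beside 0.0% and 0.794% of all genes. Adcy7, an adenylyl cyclase of haematopoietic cells, fell from 300 to 341 CPM in the earlier to 185 to 234 CPM in the later run (log2 fold change -0.62, SE 0.096, edgeR adjusted p = 0.00456). Adcy4, another adenylyl cyclase, was low: it had 4, 0, 4 and 4 counts in the earlier and 44, 16, 31 and 23 counts in the later run (3.45, SE 0.788, edgeR adjusted p = 0.041). Its call was lost with limma voom (adjusted p = 0.0825) and with a filter at 1 CPM (edgeR adjusted p = 0.0622), and when any library other than RMN037 was left out (edgeR adjusted p = 0.0661 to 0.13). Gnai1, an inhibitory G protein subunit of the kind EP3 couples to, had 0.69 (edgeR adjusted p = 0.0611).

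The genes whose TMM-scaled log2 CPM was most like that of Ptger3 over the 8 libraries were Gpr183 (Pearson r = 0.984), Adcy7 (0.969), Zfp975 (0.968), Mir142hg (0.965) and Klf13 (0.963). For Ptger4 they included Setd6 (0.973), Elf3 (0.951), Tnfsf15 (0.95) and Pak3 (0.947). These are descriptions over 12066 genes; all values share the same 8 libraries, their depth and, for Ptger3, the split between runs.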

How the data were processed

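Sorted Langerhans cells were profiled by bulk RNA sequencing in 8 libraries. The authors' deposited values are raw counts per gene; STAR 2.5.2b, featureCounts 1.5.0 and GRCm38 (mm10) come from the submitters' processing notes. Annotation release, strand setting and treatment of mates are not given in the sources used here; 60.1% of counts from 1 to 20 were even, so mates may have been counted separately. Of 25247 identifiers, 25080 matched a symbol and 167 did not; 0 columns were left unused. The most alike pair of libraries still differed beyond sampling noise, with a chi-square of 11.8 per gene.

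CPM are counts over the column total; levels per kb divide by GENCODE union exon length (GRCm38), which also gave positions. Promoters came from RefSeq (GRCm38.p6; 9 of 10 members matched). edgeR 4.0.16 in R 4.3.3 (filterByExpr, TMM, robust quasi-likelihood F-tests, Benjamini-Hochberg over all genes, threshold 0.05) was fitted to the whole table for the undisputed, title-code and description-code groups and for genotype by run. The step was tested on simulated data. Alternatives were RLE size factors, no filter, 1 CPM in 2 libraries, DESeq2 1.42.0, limma 3.58.1 voom, leaving out each library, blocking on replicate number, no RMN030 and RMN031, and run as covariate or stratum. Counts limit precision through depth, 11051402 to 18966195 per library.

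The members, listed by name, and the pathway lists were chosen with earlier results of these data known. All members are named; of each pathway list, genes past the threshold and up to 3 with the smallest p by description code; of genes like Ptger3 and Ptger4, those among the 5 with highest r, of which 1 is not reported here.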

Additional observations from a re-analysis of the deposited data

Results flagged for a closer look

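Of 44 groups of 4 values examined, 1 held a library far from the others, where chance flags about 1 in 20, or 2.2 here. Ptges3 was at 98.39 CPM in RMN033 against 145.5 to 152.1 CPM in the other 3 libraries that titles put in KO. Its near-copy Ptges3-ps was counted at 22.8 to 40.2 CPM, reads shared between them were not measured, and no test of a cause was made.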

How the results depend on the processing

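Depth limited Ptger2, which had 0 to 4 counts per library. Ptger1 had 150 to 325 counts and Ptger3 158 to 634 counts per library. By description code the Ptger3 call held under every alternative fixed with the design, with log2 fold changes of -1.128 to -0.974 as each library was left out. No value of the 9 members by title code passed under any alternative. The replicate numbers pair no samples by their deviations (correlations 0.052 to 0.101 by title and -0.007 to 0.03 by description; 2 and 1 of 8 libraries best matched their own number). With the number as a replicate block, 174 genes were called by description code against 296, 0 by title code, and Ptger3 had -1.046 (edgeR adjusted p = 0.0165), while Hpgds by title code was 0.008. Alox5 and Adcy4 lost their calls with the block (edgeR adjusted p = 0.0703 and 0.0665).

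Genes called were 440 with no filter and 305 with DESeq2 in the undisputed libraries (117 as reported), with 1 member each, Ptger3. Leaving out each library there gave 263 to 629 genes and 0 to 3 members, and Ptger3 passed without RMN031 (adjusted p = 0.024) and without RMN038 (0.0197). By title code no filter gave 1 gene, DESeq2 19 and the earlier run alone 57. By description code DESeq2 gave 660 genes, later against earlier within title WT 86 (0 members) and within title KO 188, and leaving out each library 140 to 219.

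Directions that turned by title code were Ptgs1 0.055 and Hpgds 0.166 in the earlier run; Ptgs2 -0.415, Ptger1 -0.036, Ptger3 0.049 and Ptger4 -0.08 in the later run; Hpgds 0.003 with run as covariate; Ptger3 0.13 with voom; and Ptgs2 -0.004, Ptger3 0.612, Ptger4 -0.019 and a log2 ratio of Ptger4 to Ptger3 of -0.53 without RMN030 and RMN031. By description code they were Ptgs1 0.012 and Ptgs2 0.142 within title WT; Ptges -0.003, Ptges2 0.009, Ptger1 -0.08 and Ptger4 -0.107 within title KO; and Ptges -0.055, Ptges2 0.135, Ptger1 -0.072 and Ptger4 -0.077 without RMN030 and RMN031. As single libraries were left out, title-code values ran from -0.136 to 0.095 for Hpgds, -0.06 to 0.332 for Ptger1, -0.262 to 0.202 for Ptger3 and -0.064 to 0.199 for Ptgs2. Description-code values ran from -0.133 to 0.204 for Ptger1 and -0.253 to 0.015 for Ptges2, and undisputed values from -0.262 to 0.691 for Ptger1. Without RMN030 and RMN031, title-code WT held only the later RMN036 and RMN037, while title-code KO held libraries of both runs. Title genotype and run were then partly mixed. The causes of these turns were not tested.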
